A study of Rattus norvegicus with 12 samples.

Results

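The epidermal growth factor (EGF) family ligands Egf, Areg, Ereg, Hbegf, Tgfa and Btc and the ErbB receptors Egfr, Erbb2, Erbb3 and Erbb4 were followed in rat kidney on Affymetrix expression arrays. All probe sets that name a single one of these 10 genes were taken, which gave 13 probe sets among the 31042 on the array that are not controls. Egfr had 3 probe sets, Tgfa had 2 and every other gene had 1. The kidneys came from 4 strains killed at 30 days of age. PCK rats carry a mutant Pkhd1, whose human counterpart is mutated in autosomal recessive polycystic kidney disease, and derive from the outbred SD (Sprague Dawley) stock, which was the strain they were set against. FHH.Pkhd1 is the congenic strain FHH.PCK-(D9Rat35-D9Rat70)/Mcwi, with the PCK segment of chromosome 9 that holds Pkhd1 on the Fawn Hooded Hypertensive background, and it was set against FHH. All rats ate the same 5LOD diet. For each strain, whole-kidney RNA of 6 animals was combined into 1 pool and hybridized to 3 arrays, so the 12 arrays are technical replicates of 4 pools. Errors and p-values below therefore measure array-to-array scatter, which is technical, and say nothing of how animals vary. PCK may also differ from SD outside Pkhd1.

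The ErbB receptors are membrane tyrosine kinases that pair when a ligand binds and then signal through the RAS to ERK and PI3K routes. Erbb2 has no known ligand of its own and acts as a partner, and Erbb3 has little kinase activity. The ligands are made as membrane precursors that proteases cut free. In the kidney Egf is made mainly by the thick ascending limb and the distal convoluted tubule, where it also promotes magnesium uptake. EGF receptor signalling drives proliferation of tubule cells and has been studied as a growth stimulus of cyst epithelium.

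The members lie on several chromosomes of the GRCr8 assembly. Btc, Areg and Ereg are neighbours on chromosome 14, which also holds Egfr, while Egf lies on chromosome 2, Tgfa on 4, Erbb3 on 7, Erbb2 on 10 and Hbegf on 18. Erbb4 lies on chromosome 9, as Pkhd1 does. The RefSeq promoter windows of Areg and Erbb2, the genes that passed the test below, are shown 5′ to 3′ because they hold the letters upstream of those transcripts. Each window has 300 bases and ends just inside the annotated transcript. The Areg window is chr14:17265592-17265891 of GRCr8, minus strand, and the Erbb2 window is chr10:83907351-83907650, plus strand. Capitals mark a cAMP response element (CRE), TGACGTCA, and a TATA box, TATAAA.
Areg: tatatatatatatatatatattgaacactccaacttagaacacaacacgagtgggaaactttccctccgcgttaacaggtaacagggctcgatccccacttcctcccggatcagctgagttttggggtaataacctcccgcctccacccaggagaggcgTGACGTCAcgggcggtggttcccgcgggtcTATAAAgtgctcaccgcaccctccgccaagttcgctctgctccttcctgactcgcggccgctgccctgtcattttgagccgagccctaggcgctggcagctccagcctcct
Erbb2: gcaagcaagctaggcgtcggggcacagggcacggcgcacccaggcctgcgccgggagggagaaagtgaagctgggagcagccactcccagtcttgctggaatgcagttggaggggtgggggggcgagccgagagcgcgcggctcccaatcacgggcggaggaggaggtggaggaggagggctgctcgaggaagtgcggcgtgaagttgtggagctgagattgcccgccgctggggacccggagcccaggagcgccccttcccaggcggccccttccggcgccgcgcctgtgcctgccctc
The CRE of the Areg window lies at -91 to -84 and the TATA box at -61 to -56 from the annotated start. Both strands were searched for the CRE, the TATA box and the AP-1 motif TGANTCA, which do not overlap in either window. The CRE was found in 1.83%, the TATA box in 14.2% and AP-1 in 7.33% of the 33469 windows of the same length. Of the 8 members with a window in the table, Areg alone held any of the 3 motifs. The Erbb2 window held none of them. A match is a description of letters, and no array here measures binding.

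Values are log2 signals as deposited, with array medians of 6.41 to 6.46. Correlations over all probe sets were 0.9973 to 0.9985 between arrays of 1 pool and 0.9862 to 0.996 between arrays of different pools. A probe set was tested when at least 1 pool averaged 5.74 or more, the 40th percentile of values other than controls, called the detection level here, though it is no measured background. That held for 19382 probe sets. A probe set was called when limma gave an adjusted p under 0.05 and a difference of at least 1.5-fold, which is 0.585 on the log2 scale. Kidney identity was clear from markers, with all 11 proximal tubule markers, all 7 measured thick ascending limb markers and all 5 measured podocyte markers above the detection level in every pool. Whole-kidney RNA cannot tell fewer cells of a type from less RNA per cell. Adrenal cortex markers stood higher in FHH.Pkhd1 than in FHH and are given beside Erbb2 below. Poly-A spike-ins, RNA added before labelling, averaged 10.86 in PCK, 10.50 in SD, 10.04 in FHH.Pkhd1 and 11.14 in FHH. In an exact two-sided permutation test every pair compared gave p = 0.1, and 3 against 3 arrays can go no lower. The 3′ minus 5′ signal of beta-actin, a sign of RNA quality, was 1.33 in PCK, 1.10 in SD, 1.2 in FHH.Pkhd1 and 1.39 in FHH, and that of GAPDH 0.14, -0.03, 0.09 and 0.17 in the same order, with the same p = 0.1 in that exact test for every pair. The part of these differences in the results below was not tested.

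Of the 13 probe sets, 8 were tested. They stand for 7 genes: Egf, Areg, Tgfa, Btc, Egfr with 2 probe sets, Erbb2 and Erbb3. The other 5 stayed below the detection level in all pools. They are those of Ereg, Hbegf and Erbb4, the second of Tgfa and the third of Egfr. Areg was tested through the SD pool alone, in which its mean was above the level, so it entered the test only because it was higher there.

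**Figure D1:**
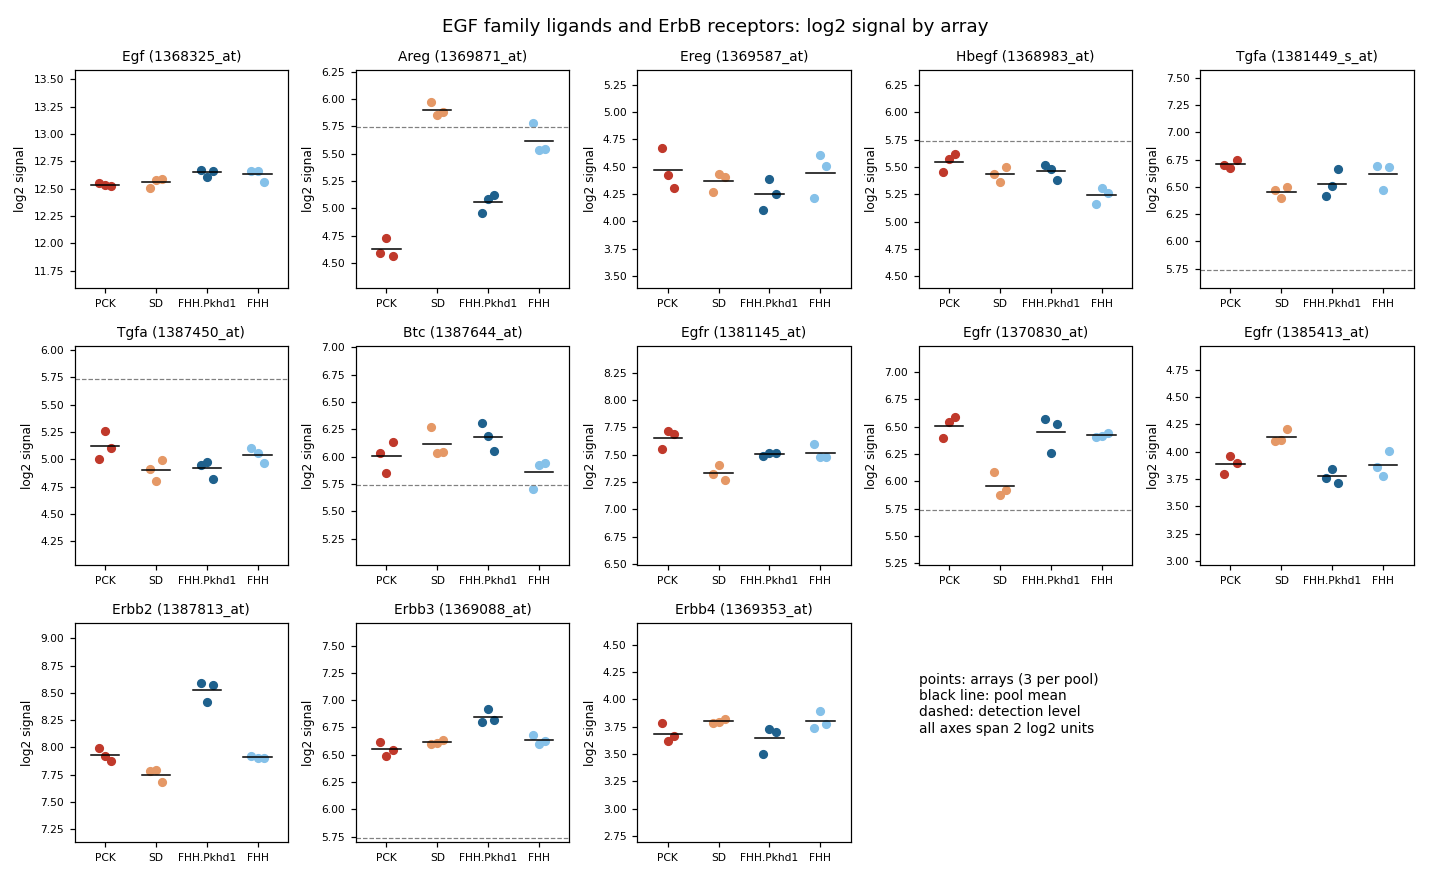
Log2 signal of each member probe set, with 1 panel per probe set, the 4 pools on the x axis, 3 arrays per pool as points, pool means as black lines and the detection level of 5.74 dashed where it falls in range. All panels span the same 2 log2 units. Areg is lowest in PCK and highest in SD, Erbb2 is highest in FHH.Pkhd1, and Egf hardly varies.

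Among the ligands, Areg had the largest difference of the 8 tested member probe sets. Areg encodes amphiregulin, a membrane-anchored EGF receptor ligand whose transcription cAMP and growth stimuli raise. Its signal was 4.59, 4.73 and 4.57 in PCK arrays, against 5.97, 5.85 and 5.88 in SD arrays. In FHH.Pkhd1 arrays it was 4.96, 5.08 and 5.12, against 5.78, 5.53 and 5.54 in FHH arrays. The 4 pools were separate, with PCK lowest, then FHH.Pkhd1, then FHH, and SD highest, and no array of one pool reached into the range of the next.

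Areg fell in PCK relative to SD, with a log2 difference of -1.27 ± 0.07 (SE; limma adjusted p = 9.86e-08). Every PCK array lay below every SD array. Because Areg entered the test only through its high SD mean, this p-value cannot count as support for a higher SD signal. The same holds for its other tests that use the SD pool. In PCK minus SD, 3.49% of tested probe sets were called, 1.7% as lower. The PCK mean of 4.63 was below the detection level, so the size of the difference is uncertain and no fold is given. Areg was also lower in FHH.Pkhd1 than in FHH, by -0.57 ± 0.07 (adjusted p = 0.000198), which missed the fold limit. Both of these means, 5.05 in FHH.Pkhd1 and 5.62 in FHH, were below the detection level, so no fold is given here either. Its call in FHH.Pkhd1 minus FHH turned on single arrays, with -0.61 without FHH replicate 2, -0.60 without FHH replicate 3 and -0.60 without FHH.Pkhd1 replicate 3, all called. An adjusted p under 0.05 with a lower mean in both comparisons, which share no array, was met by 2.11% of tested probe sets. That share is a background and no test of Areg.

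For Areg the interaction, which is PCK minus SD less FHH.Pkhd1 minus FHH, was -0.71 ± 0.10 (limma adjusted p = 0.000317) and was called, where 6.43% of tested probe sets were called and 3.31% as lower. Of the 4 pool means it rests on, 3 were below the detection level, so its size is uncertain. A filter on the mean over all arrays removed Areg and left 0 members called in the interaction and 0 in PCK minus SD. PCK stood below FHH.Pkhd1 by -0.43 ± 0.07 (adjusted p = 0.000467) and SD above FHH by 0.28 ± 0.07 (adjusted p = 0.0106), both under the fold limit. The tested neighbours of Areg on chromosome 14 were not called in either Pkhd1 comparison. Btc, on one side, gave -0.11 in PCK minus SD, with 0.32 in FHH.Pkhd1 minus FHH, and Parm1 beyond it gave 0.14 and 0.19.

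Egf, the founding ligand of the family and an abundant distal tubule transcript, was almost level across pools. Its signal was 12.55, 12.53 and 12.52 in PCK arrays, against 12.50, 12.58 and 12.59 in SD arrays. It was 12.68, 12.61 and 12.66 in FHH.Pkhd1 arrays, against 12.66, 12.67 and 12.56 in FHH arrays. The arrays of PCK and SD overlapped, and so did those of FHH.Pkhd1 and FHH. The difference was -0.02 in PCK minus SD (95% interval -0.11 to 0.07, limma adjusted p = 0.739), with 0.02 in FHH.Pkhd1 minus FHH (95% interval -0.07 to 0.11, adjusted p = 0.82). These intervals lie well inside the 1.5-fold limits. PCK minus FHH.Pkhd1 gave -0.11 ± 0.04 (adjusted p = 0.0403), under the fold limit. The median difference over all tested probe sets in that comparison was -0.061. Over the alternative settings described below, Egf ranged there from -0.112 to -0.069, with limma adjusted p from 0.00184 to 0.168.

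Tgfa encodes transforming growth factor alpha, another high-affinity EGF receptor ligand. Its tested probe set, 1381449_s_at, read 6.70, 6.67 and 6.75 in PCK arrays, against 6.471, 6.399 and 6.501 in SD arrays. All PCK arrays lay above all SD arrays, and the difference was 0.25 ± 0.07 (limma adjusted p = 0.0189), or 1.19-fold, under the fold limit. In FHH.Pkhd1 it was 6.41, 6.51 and 6.67, against 6.70, 6.47 and 6.68 in FHH, and these arrays overlapped (-0.09 ± 0.07, adjusted p = 0.438). The second probe set, 1387450_at, lay below the detection level at pool means of 4.90 to 5.13 and gave 0.22 in PCK minus SD, with -0.13 in FHH.Pkhd1 minus FHH. Both probe sets therefore had the same signs in these comparisons.

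Btc encodes betacellulin, which binds both Egfr and Erbb4. Its signal was close to the detection level in all pools, at 6.03, 5.85 and 6.13 in PCK arrays, against 6.28, 6.03 and 6.05 in SD arrays. It was 6.31, 6.19 and 6.05 in FHH.Pkhd1 arrays, against 5.71, 5.92 and 5.95 in FHH arrays. PCK and SD overlapped, while every FHH.Pkhd1 array lay above every FHH array. The differences were -0.11 ± 0.10 (limma adjusted p = 0.419) in PCK minus SD, with 0.32 ± 0.10 (adjusted p = 0.0336) in FHH.Pkhd1 minus FHH, which is under the fold limit.

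Hbegf, heparin-binding EGF-like growth factor, and Ereg, epiregulin, are ligands that tissues induce after injury. Hbegf had pool means of 5.55 in PCK, 5.43 in SD, 5.46 in FHH.Pkhd1 and 5.24 in FHH, all below the detection level. With all 31042 probe sets tested, its difference was 0.12 ± 0.06 in PCK minus SD (limma adjusted p = 0.243), with 0.22 ± 0.06 in FHH.Pkhd1 minus FHH (adjusted p = 0.0391). Ereg lay lower still, at pool means of 4.25 to 4.47, and gave 0.10 ± 0.11 in PCK minus SD (adjusted p = 0.639), with -0.19 ± 0.11 in FHH.Pkhd1 minus FHH (adjusted p = 0.329) in the same test. Neither was called. A signal below the level may still be real, and these probe sets cannot show whether the transcripts were absent.

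Among the receptors, Erbb2 stood out in FHH.Pkhd1. Its signal was 8.59, 8.42 and 8.57 in FHH.Pkhd1 arrays, against 7.92, 7.90 and 7.91 in FHH arrays. In PCK arrays it was 7.997, 7.92 and 7.87, against 7.78, 7.79 and 7.68 in SD arrays. Every FHH.Pkhd1 array lay above all 9 arrays of the other pools. Erbb2 rose in FHH.Pkhd1 relative to FHH, by 0.62 ± 0.05 (SE; limma adjusted p = 8.36e-06), or 1.53-fold, just past the fold limit. In FHH.Pkhd1 minus FHH, 1.9% of tested probe sets were called, 0.898% as higher.

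Erbb2 was 1.51-fold lower in PCK than in FHH.Pkhd1 (-0.60 ± 0.05, limma adjusted p = 2.37e-06), and it was called, as were 6.9% of tested probe sets, 3.79% as lower. That call was lost with quantile normalization (-0.53) and median centring (-0.57), and without PCK replicate 3 (-0.57), FHH.Pkhd1 replicate 1 (-0.57) or FHH.Pkhd1 replicate 3 (-0.58). In PCK minus SD the difference was 0.18 ± 0.05 (adjusted p = 0.0224), or 1.13-fold, under the fold limit. The interaction was -0.44 ± 0.07 (adjusted p = 0.000926), also under it. The sign was thus positive in both Pkhd1 comparisons, and the difference was larger on the FHH background.

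Other markers moved with Erbb2. Adrenal cortex markers averaged 6.27 to 6.41 over the arrays of FHH.Pkhd1, against 5.75 to 5.85 in FHH, with 3 of 6 measured markers above the detection level in each. The steroidogenic genes Hsd3b1 (1.07), Cyp11a1 (0.93) and Star (0.83) were those 3, and all 3 rose, while Cyp11b1, Cyp17a1 and Nr5a1 were below the level in every pool. Principal cell markers of the collecting duct averaged 9.99 to 10.03 in FHH.Pkhd1, against 9.66 to 9.69 in FHH, with all 9 above the level and 1 called higher, the sodium channel subunit Scnn1a. These principal cell markers also averaged more in PCK, at 9.78 to 9.80, against 9.45 to 9.50 in SD, with the water channel Aqp3 called higher. Intercalated cell markers averaged 10.05 to 10.09 in FHH.Pkhd1, against 9.82 to 9.86 in FHH, with all 6 above the level and the anion exchanger Slc4a1 called higher (0.65). Tubule injury markers averaged 8.64 to 8.72 in FHH.Pkhd1, against 8.81 to 8.90 in FHH, with all 8 above the level and Havcr1 (-0.93) and Gdf15 (-0.61) called lower. The injury markers did not move as 1 set, with a list median of 0.018. At a limma adjusted p under 0.05 but under the fold limit, Lcn2 was lower (-0.549). Clu (0.225), Spp1 (0.24) and Vim (0.125) were higher in the same way. No gene of the other 9 cell type lists was called in FHH.Pkhd1 minus FHH. The part of these cells in the Erbb2 difference was not tested. Of the measured genes within 3 places of Erbb2 on chromosome 10, Pgap3 gave 0.10 and the adaptor Grb7 0.18 in FHH.Pkhd1 minus FHH, and neither was called.

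Egfr, the receptor of all 6 ligands, had 3 probe sets. The brightest, 1381145_at, read 7.55, 7.71 and 7.69 in PCK arrays, against 7.33, 7.41 and 7.27 in SD arrays. In FHH.Pkhd1 arrays it was 7.49, 7.51 and 7.51, against 7.60, 7.48 and 7.48 in FHH arrays. The second, 1370830_at, read 6.399, 6.54 and 6.59 in PCK arrays, against 6.08, 5.88 and 5.93 in SD arrays. It read 6.57, 6.26 and 6.53 in FHH.Pkhd1 arrays, against 6.41, 6.42 and 6.44 in FHH arrays. On both, SD was the lowest pool and its arrays lay below all PCK arrays, while FHH.Pkhd1 and FHH overlapped.

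Egfr was higher in PCK than in SD by 0.32 ± 0.05 (limma adjusted p = 0.000769) on 1381145_at and by 0.55 ± 0.08 (adjusted p = 0.000281) on 1370830_at, the larger of which is 1.46-fold and under the fold limit. The second passed that limit without PCK replicate 1 (0.60) or SD replicate 1 (0.61). FHH.Pkhd1 minus FHH gave -0.02 ± 0.05 (adjusted p = 0.878) and 0.03 ± 0.08 (adjusted p = 0.821) on the same probe sets. The interaction was 0.33 ± 0.08 (adjusted p = 0.00634) and 0.52 ± 0.11 (adjusted p = 0.00513). SD stood below FHH as well, by -0.19 ± 0.05 (adjusted p = 0.0191) and -0.46 ± 0.08 (adjusted p = 0.000951). The third probe set, 1385413_at, ran the other way, with means of 3.89 in PCK and 4.14 in SD, but it lay below the detection level in every pool.

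Erbb3, the kinase-impaired receptor of neuregulins, was highest in FHH.Pkhd1. Its signal was 6.80, 6.92 and 6.82 there, against 6.69, 6.60 and 6.63 in FHH arrays, with no overlap. The difference was 0.21 ± 0.05 (limma adjusted p = 0.0071), or 1.15-fold, under the fold limit. In PCK it was 6.62, 6.49 and 6.55, against 6.60, 6.61 and 6.64 in SD, and these overlapped (-0.06 ± 0.05, adjusted p = 0.323). Erbb4, a receptor of neuregulins and betacellulin, had pool means of 3.64 to 3.80 throughout, far below the detection level. Although its gene lies on chromosome 9, it gave -0.11 ± 0.07 in PCK minus SD (adjusted p = 0.31), with -0.16 ± 0.07 in FHH.Pkhd1 minus FHH (adjusted p = 0.175) when all probe sets were tested.

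**Figure D2:**
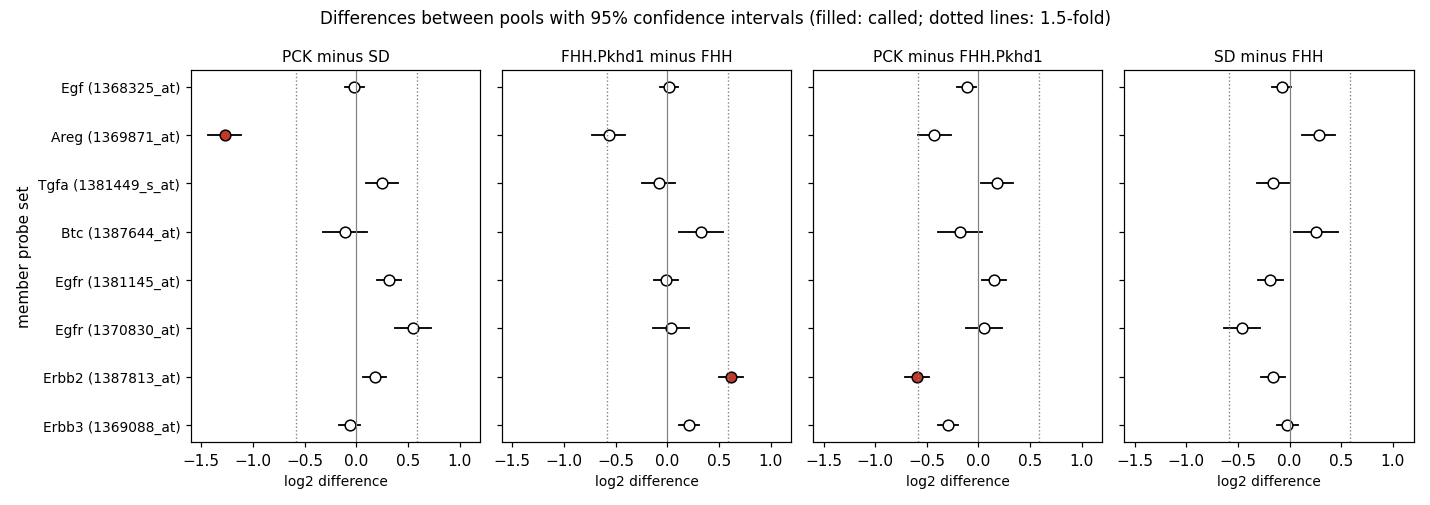
Log2 differences of the 8 tested member probe sets in the 4 pairwise comparisons, as points with 95% confidence intervals from limma. Filled points were called and dotted lines mark 1.5-fold. Areg at -1.27 in PCK minus SD and Erbb2 at 0.62 in FHH.Pkhd1 minus FHH and -0.60 in PCK minus FHH.Pkhd1 are the filled points, and SD minus FHH has none.

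Over the 8 tested probe sets, 1 was called in each of the comparisons PCK minus SD, FHH.Pkhd1 minus FHH and PCK minus FHH.Pkhd1, against the 3.49%, 1.9% and 6.9% of all tested probe sets given above. None was called in SD minus FHH, where 3.72% of all tested probe sets were by limma. There 4 of 8 members had an adjusted p under 0.05, against 34.9% of tested probe sets. With an adjusted p alone, 5 of 8 passed in PCK minus SD, against 32.5% of all tested probe sets. In FHH.Pkhd1 minus FHH 4 of 8 passed, against 21%, and in PCK minus FHH.Pkhd1 5 of 8, against 51.7%. Arrays of the pools did not overlap for 5 of 8 members in PCK minus SD, against 45.1% of tested probe sets, and for 4 of 8 in FHH.Pkhd1 minus FHH, against 37.3%. The counts were 6 of 8 in PCK minus FHH.Pkhd1, against 59.1%, and 5 of 8 in SD minus FHH, against 48.3%. PCK minus FHH.Pkhd1 and SD minus FHH reuse arrays of the other comparisons. The 1 member called in PCK minus SD was Areg, which entered the test only through its high SD mean. Areg is also within the other member counts of PCK minus SD and SD minus FHH, where it cannot count as support.

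**Figure D3:**
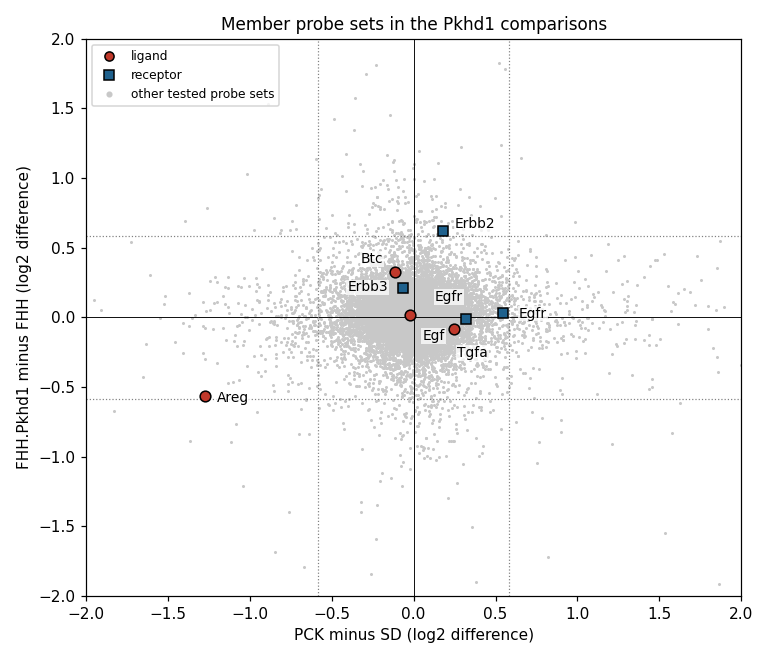
Log2 differences in PCK minus SD (x axis) and FHH.Pkhd1 minus FHH (y axis) for the 8 tested member probe sets, with ligands as circles and receptors as squares, over all 19382 tested probe sets in grey. Dotted lines mark 1.5-fold, and 56 probe sets lie outside the axes. Areg lies at the lower left (-1.27 and -0.57), Erbb2 at the top (0.18 and 0.62) and the 2 Egfr probe sets to the right (0.32 and 0.55).

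The genes around the receptors were then read from 7 lists, with the brightest probe set kept for each gene. Of 93 listed genes 74 had a single-symbol probe set and 62 were tested. In PCK minus SD 1 of the 62 fell and none rose, where 3.11% of all genes tested were called. It was Calb1, the calcium-binding protein calbindin of the distal convoluted tubule, at 11.59 in PCK, against 12.28 in SD (-0.69 ± 0.03, limma adjusted p = 2.55e-08). In FHH.Pkhd1 minus FHH 1 of 62 rose, where 1.27% of all genes were called. It was Jun, the immediate early transcription factor, at 9.60 in FHH.Pkhd1, against 8.69 in FHH (0.91 ± 0.09, adjusted p = 2.1e-05). Both genes went the other way in the other Pkhd1 comparison, under the fold limit. Jun was -0.41 ± 0.09 in PCK minus SD (adjusted p = 0.00335). Calb1 was 0.12 ± 0.03 in FHH.Pkhd1 minus FHH (adjusted p = 0.0221). In the interaction 2 of 62 were called lower, where 5.02% of all genes were called. They were Jun (-1.32, adjusted p = 9.16e-06) and Calb1 (-0.81, adjusted p = 2.14e-07).

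Transducers and release factors of the pathway stayed inside the fold limit in both Pkhd1 comparisons. None of the 11 tested adaptor and RAS to ERK genes was called, and their median difference was -0.02 in each, beside -0.003 and 0.012 over all genes. None of the 12 PI3K, STAT and SRC genes was called, with medians of 0.02 and 0.06, nor any of the 5 shedding genes, with medians of -0.08 and 0.02. Feedback inhibitors and turnover genes had medians of -0.08 and 0.03 with none of 16 called. Of these, Errfi1, an inhibitor that binds the receptor kinases, was picked out after its values were seen, since it was lower in both. It averaged 11.74 in PCK, against 12.08 in SD (-0.35 ± 0.03, adjusted p = 1.03e-05), and 11.50 in FHH.Pkhd1, against 11.79 in FHH (-0.29 ± 0.03, adjusted p = 0.000107), both under 1.5-fold.

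Early and growth targets had medians of 0.11 and 0.14 over 11 tested genes, with Jun alone called. Myc was higher in PCK minus SD (0.54 ± 0.06, limma adjusted p = 3.06e-05), under the fold limit, while Jun was lower there. In FHH.Pkhd1 minus FHH Myc gave 0.02 ± 0.06 (adjusted p = 0.827). Nrg1, a neuregulin that binds Erbb3 and Erbb4, was the only other family ligand tested, at 7.85 in PCK, against 7.35 in SD (0.50 ± 0.06, limma adjusted p = 8.42e-05), under the fold limit. Nrg1 gave 0.135 ± 0.06 in FHH.Pkhd1 minus FHH (adjusted p = 0.161). The 6 tested distal convoluted tubule genes had medians of 0.06 and 0.11, and those of the thick ascending limb -0.01 and 0.04 with none of 7 called. Egf, made in these segments, was almost level, and Slc12a3, the thiazide-sensitive cotransporter, was at 9.78 in PCK, 9.74 in SD, 9.88 in FHH.Pkhd1 and 9.97 in FHH. Calb1 of the same distal list was not level, and was called lower in PCK minus SD (-0.69), as given above.

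PCK and FHH.Pkhd1 both carry the Pkhd1 segment, on different backgrounds. Between these pools 3 of the 62 were called higher and 2 lower, where 5.83% of all genes were called. The injury marker Havcr1 (3.18) and the adrenal marker Hsd3b1 (-3.49) differed between them as well. The part of the background in these differences was not tested. The transcription factor Stat3 stood 1.05 ± 0.13 higher in PCK (10.21, against 9.17 in FHH.Pkhd1), Myc 0.61 ± 0.06 higher (7.0, against 6.39) and Rhbdf1, an inactive rhomboid that governs the sheddase ADAM17, 0.60 ± 0.06 higher (8.88, against 8.29). Jun was -0.63 ± 0.09 and Calb1 -0.79 ± 0.03 in the same comparison. In SD minus FHH, Stat3 (0.92 ± 0.13) and Jun (0.69 ± 0.09) were higher and none was lower, where 3.31% of all genes were called. The highest limma adjusted p among these was 0.000197.

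**Figure D4:**
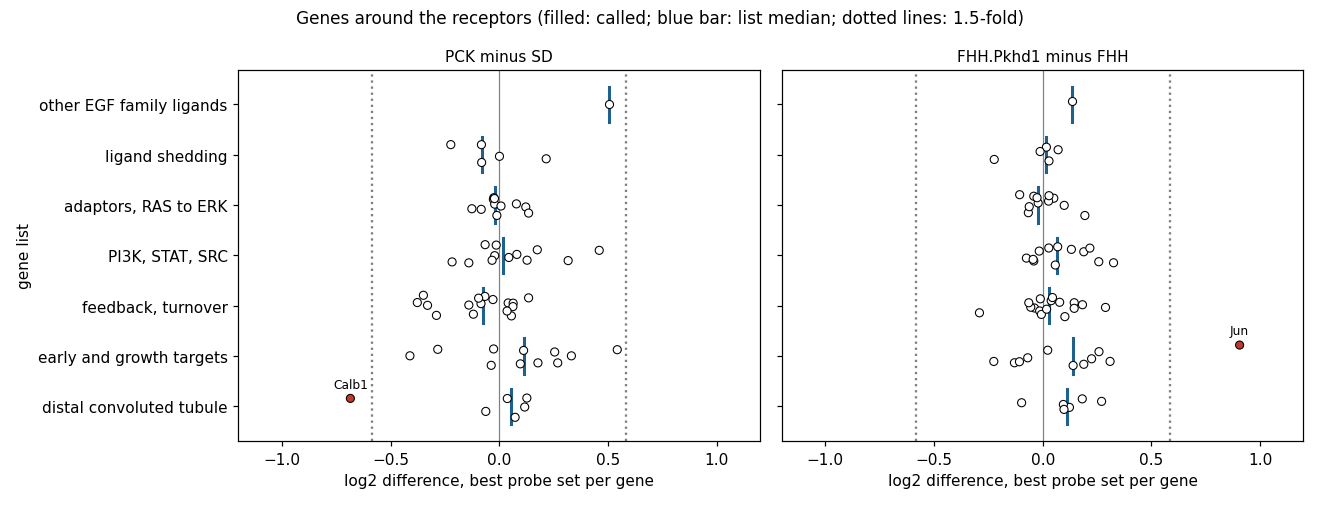
Log2 differences of the tested genes of the 7 pathway lists in PCK minus SD (left) and FHH.Pkhd1 minus FHH (right), with 1 point per gene, called genes filled and named, list medians as blue bars and dotted lines at 1.5-fold. Calb1 at -0.69 and Jun at 0.91 are the only filled points.

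Tubule injury and other cell types moved with Areg in PCK minus SD. Injury markers averaged 9.65 to 9.69 in PCK arrays, against 8.82 to 8.88 in SD arrays, with all 8 above the detection level and 2 called higher, Havcr1 (3.15) and Clu (1.55). Lcn2 (0.54), Spp1 (0.582), Krt18 (0.509) and Timp1 (0.339) were higher at a limma adjusted p under 0.05 but under the fold limit. Vim (-0.059) and Gdf15 (-0.006) did not rise. Red cell markers averaged 8.17 to 8.22 in PCK, against 9.09 to 9.23 in SD, with 3 of 4 called lower, Ahsp (-1.91), Alas2 (-1.13) and Hbb (-0.79). Urothelial markers averaged 5.91 to 5.99 in PCK, against 5.65 to 5.69 in SD, with 4 of 6 above the level and none called. Intercalated cell markers averaged 9.85 to 9.93 in PCK, against 9.61 to 9.63 in SD, with Foxi1 called higher (0.63), and among the principal cell markers given above Aqp3 was (0.63). Macrophage markers averaged 6.81 to 6.88 in PCK, against 6.72 to 6.77 in SD, with Mrc1 called higher (0.90). Their list median was -0.004, and Mrc1 alone was higher at a limma adjusted p under 0.05. Aif1 (-0.37) and Adgre1 (-0.33) were lower at that threshold, both under the fold limit. Fibroblast markers averaged 9.13 to 9.14 in PCK, against 9.25 to 9.30 in SD, with Lum called lower (-0.84), though its PCK mean of 5.46 was below the detection level. At a limma adjusted p under 0.05 but under the fold limit, Col1a1 (-0.381), Col1a2 (-0.185) and Col3a1 (-0.199) were lower. Pdgfra (0.293) and Dcn (0.221) were higher in the same way. In FHH.Pkhd1 minus FHH, where Areg was also lower, the markers that moved are those given beside Erbb2, with 2 of 8 injury markers called lower and none higher. The part of these cells in the Areg difference was not tested.

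For the called members, the genes of most similar pattern were taken over the 12 arrays from 1048 genes whose pool means spanned at least 1.5-fold. Those nearest to Areg were H4f3 (Pearson r = 0.975), Cryzl2 (r = 0.974) and Garnl3 (r = 0.970). The PCK mean of H4f3, 5.64, was below the detection level. Cryzl2 averaged 10.18 in PCK, 10.80 in SD, 10.38 in FHH.Pkhd1 and 10.73 in FHH, the order that Areg had. Those nearest to Erbb2 were Kcnt1 (r = 0.976), Prrc2a (r = 0.967) and S100a9 (r = 0.950), and Prrc2a averaged 6.96 in PCK, 6.67 in SD, 8.01 in FHH.Pkhd1 and 7.08 in FHH. S100a9 averaged 4.91, 4.37, 5.82 and 4.58 in the same order. It was above the detection level in FHH.Pkhd1 alone and was a candidate only through that pool, so its likeness to Erbb2 is partly built in. The 12 arrays stand for 4 pools, so r is a description of pool patterns.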

How the data were processed

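The deposited table held log2 probe set signals. The submitters' processing notes name RMA and Partek 6.2, without saying what each did. Biotinylated cRNA was made from 100 ng of RNA, per the labels' protocols. It was not stated if the 12 arrays were normalized in 1 run, and no depth applies to arrays, whose number limits precision. The values (2.38 to 14.41) were used as deposited.

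Of 31099 probe sets, 57 controls were left out. Of the others 20826 carried 1 gene symbol, 436 several and 9780 none, and symbols were updated through gene IDs to GRCr8 records. Members and gene lists were chosen with earlier results of these data known, and gene lists kept the probe set of highest mean per gene. Listed genes without a single-symbol probe set were not analysed here. Named genes were all members, called list genes (up to 4 per pathway list, 2 per cell type list), and the 3 genes nearest in pattern to members called in a Pkhd1 comparison, placeholder symbols left out. Outside this rule, and with values seen, Errfi1, Nrg1, Slc12a3, the neighbours Parm1, Pgap3 and Grb7, the adrenal genes Star, Cyp11b1, Cyp17a1 and Nr5a1, and Hbb were also named. So were the injury markers Lcn2, Spp1, Krt18, Timp1 and Vim, the macrophage markers Aif1 and Adgre1, and the fibroblast markers Pdgfra, Dcn, Col1a1, Col1a2 and Col3a1.

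All 12 arrays were fitted in limma 3.58.1 (R 4.3.3) with 1 mean per pool, eBayes (prior degrees of freedom 3.77, residual 8) and Benjamini-Hochberg adjustment over all 19382 tested probe sets. The fit was tested on simulated data. Same-numbered arrays did not deviate together in every pair (correlations of -0.238 to 0.345), so replicate numbers name arrays only. Alternatives covered filters, probe set choice, fold limit, variance model, arrays fitted, normalization, the replicate block and leaving out each array. Figures used matplotlib 3.10.9.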

Additional observations from a re-analysis of the deposited data

Results flagged for a closer look

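For 7 of the 8 tested member probe sets the difference in PCK minus SD was not the same as that in FHH.Pkhd1 minus FHH by the interaction term of limma, where 30% of all tested probe sets passed that test at an adjusted p under 0.05. The interaction was -0.71 for Areg (adjusted p = 0.000317), -0.44 for Erbb2 (adjusted p = 0.000926), -0.27 for Erbb3 (adjusted p = 0.00775) and -0.44 for Btc (adjusted p = 0.0311). It was 0.52 for Egfr on 1370830_at (adjusted p = 0.00513), 0.33 for Egfr on 1381145_at (adjusted p = 0.00634) and 0.33 for Tgfa on 1381449_s_at (adjusted p = 0.026). Areg alone also passed the fold limit, with 3 of its 4 pool means below the detection level. It entered the test only through its high SD mean. Its interaction p-value and its place among the 7 therefore cannot count as support. Egf was the exception, at -0.04 (adjusted p = 0.669). Groups of 3 arrays are too small to test for single outlying arrays.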

How the results depend on the processing

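Over the member differences and alternatives, 614 values kept their direction and their side of the threshold, 26 newly passed it, 5 no longer passed it and 10 changed sign. Most of those 26 came from dropping the fold limit, which loosens the threshold itself. The rest came from leaving out 1 array. In PCK minus SD Areg was called in all 8 alternatives that tested it (-1.30 to -1.27) and without any 1 array (-1.32 to -1.24). These settings reuse the same arrays and give no further support. In FHH.Pkhd1 minus FHH Erbb2 was called without any 1 array (0.59 to 0.67). The filter on the mean over all arrays removed Areg, which left 0 members called in PCK minus SD and 0 in the interaction. Quantile normalization and median centring each left 0 members called in PCK minus FHH.Pkhd1. With no fold limit, 5, 4, 5, 4 and 7 of the 8 tested members passed, and over all probe sets 6301, 4062, 10021, 6759 and 5823. With 1 probe set per gene, 339, 138, 635, 361 and 547 were called, with fewer probe sets tested. These counts run over PCK against SD, FHH.Pkhd1 against FHH, PCK against FHH.Pkhd1, SD against FHH and last the interaction. Leaving out 1 array gave 1 to 2 members called for PCK against SD, 1 to 2 for FHH.Pkhd1 against FHH and 0 to 1 in PCK minus FHH.Pkhd1. Over all probe sets the same fits called 683 to 714, 342 to 434 and 1279 to 1426.

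The sign changes were all in differences near 0, and their cause was not tested. Under quantile normalization Egf was -0.021 in FHH.Pkhd1 minus FHH and 0.012 in the interaction, and Erbb3 was 0.01 in SD minus FHH, against 0.006 under median centring. Without 1 array, FHH.Pkhd1 minus FHH ranged from -0.017 to 0.037 for Egf, from -0.035 to 0.025 for Egfr on 1381145_at and from -0.026 to 0.127 for Egfr on 1370830_at. Egfr on 1370830_at ranged from -0.041 to 0.113 in PCK minus FHH.Pkhd1, and Erbb3 from -0.041 to 0.002 in SD minus FHH. With the replicate number as a block, 676 probe sets were called for PCK against SD and 368 for FHH.Pkhd1 against FHH, 1 member in each. Same-numbered arrays correlated between -0.238 and 0.345 in their deviations, so the numbers do not pair them. Members below the detection level, and Areg outside SD, are limited by weak signal.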
